A study of Homo sapiens with 2 samples.

Results

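Small nucleolar RNAs (snoRNAs) and small Cajal body RNAs (scaRNAs) were examined in total RNA of MIA PaCa-2, a human cell line established from a pancreatic carcinoma. The genes were chosen by symbol and by level: the symbol starts with SNORA, SNORD or SCARNA, the authors' table gives the status OK, and the higher of the 2 libraries' values is at least 5 FPKM (fragments per kilobase of the transcript, set relative to the size of the library). This left 86 genes of the 450 annotated genes with such symbols, in a table of 58698 genes. They are 57 SNORA, 15 SNORD and 14 SCARNA genes. The values that chose them are the values described below, so levels and differences are given as a description, with no test.

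The sgTPST2 library came from cells with a guide against TPST2 (genotype label TPST2 KD), and the sgGFP library from cells with a guide against GFP (genotype label WT), a gene that human cells lack. Each condition was 1 library, so no difference has a replicate check. The labels do not say whether the guides cut or repress, nor whether either culture was a clone or a pool. TPST2, which encodes a Golgi enzyme that sulfates tyrosines of secreted and membrane proteins, stood at 1.92 FPKM in sgTPST2, against 8.46 FPKM in sgGFP, a log2 difference of -1.70. All log2 differences are log2((sgTPST2 + 1)/(sgGFP + 1)) of the FPKM values.

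The libraries held 48.0 (sgTPST2) and 42.3 (sgGFP) fragments for each FPKM and kilobase of transcript, so sgTPST2 was the deeper by a factor of 1.14. Of the 5 carcinoma markers examined, KRT8, KRT18 and KRT19 were present, at 41.6, 85.3 and 12.8 FPKM in sgTPST2 against 509.9, 583 and 189 FPKM in sgGFP. EPCAM is listed at 0 in both libraries, and CDH1 at 0.0524 FPKM in sgTPST2 and 0 in sgGFP. The acinar markers PRSS1, CPA1 and CELA3A and the fibroblast markers LUM and DCN are listed at 0 in both libraries, COL1A1 had 0.216 FPKM in sgTPST2 and 0.0450 FPKM in sgGFP, and the leukocyte gene PTPRC is listed at 0 in sgTPST2 and had 0.102 FPKM in sgGFP. CDKN2A, which published work gives as deleted in this line, is listed at 0 in both. The part of the keratin difference in the snoRNA values was not tested.

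Most snoRNAs guide the enzymes that modify ribosomal RNA. Box C/D snoRNAs (SNORD) pair with their target and direct fibrillarin to methylate the ribose, box H/ACA snoRNAs (SNORA) direct dyskerin to turn uridine into pseudouridine, and scaRNAs do the same to the small nuclear RNAs of the spliceosome in Cajal bodies. A few, such as U3 and U17, are needed for cutting the ribosomal RNA precursor rather than for modifying it. In human cells most of these RNAs lie in introns of other genes and are trimmed out of the spliced intron. In RNA of a whole culture, fewer cells with an RNA and less of it per cell cannot be told apart.

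The sequences that set the classes apart are shown first for the box H/ACA snoRNA with the highest FPKM, for a well-covered box C/D snoRNA and for a box H/ACA scaRNA. They are the annotated transcripts of GENCODE release 29 (GRCh38), written 5′ to 3′. SNORA63 lies at chr3:186787300-186787431, plus strand, in EIF4A2. SNORD17 lies at chr20:17962710-17962946, minus strand, in an intron of SNX5, and SCARNA22 at chr4:1974636-1974760, plus strand, in an intron of NSD2. In SNORA63 and SCARNA22 the capitals mark the H box (ANANNA, nearest the middle of the RNA) and the ACA box near the 3′ end, and in SNORD17 they mark box C (NTGATGA) and box D (CTGA).
SNORA63: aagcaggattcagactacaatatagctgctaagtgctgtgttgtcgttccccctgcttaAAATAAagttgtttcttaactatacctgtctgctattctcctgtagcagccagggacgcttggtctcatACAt
SNORD17: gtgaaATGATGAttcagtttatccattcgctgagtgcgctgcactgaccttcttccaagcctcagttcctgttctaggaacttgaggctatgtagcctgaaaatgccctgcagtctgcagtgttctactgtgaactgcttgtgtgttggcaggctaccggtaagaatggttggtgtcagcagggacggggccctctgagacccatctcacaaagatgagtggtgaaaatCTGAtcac
SCARNA22: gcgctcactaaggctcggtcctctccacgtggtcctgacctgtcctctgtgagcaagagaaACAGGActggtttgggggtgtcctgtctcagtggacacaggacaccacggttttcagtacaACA

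The letters were counted on the sense strand over all transcripts of 1-transcript genes. ACA with at most 6 bases after it was found in 55 of 56 SNORA genes above 5 FPKM (98.2%), against 75 of 87 SNORA genes listed at 0 in both libraries (86.2%), and in 91.0% of all 145 SNORA transcripts. An H box within 35 to 65% of the length of the RNA was found in 52 of the 56 (92.9%) and in 83 of the 87 (95.4%). The same letters were found in 2 of 12 SNORD genes above 5 FPKM (16.7%) and in 138 of 260 listed at 0 (53.1%), so this match is not particular to SNORA. Box C starting within the first 30 bases was found in 10 of 12 SNORD genes above 5 FPKM (83.3%), against 187 of 260 listed at 0 (71.9%). Box D with at most 12 bases after it was found in 11 of the 12 (91.7%) and in 246 of the 260 (94.6%). Among the 14 scaRNAs, 10 held the ACA box (71.4%), 6 held box D (42.9%) and 4 held box C (28.6%). Over all 25 SCARNA transcripts these shares were 72.0%, 32.0% and 28.0%, and this class mixes both designs. A match is a string of letters and not a tested site.

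The classes differed in how many of their annotated genes were measured at all. Above 5 FPKM were 14 of 25 SCARNA genes (56.0%), 57 of 147 SNORA genes (38.8%) and 15 of 278 SNORD genes (5.40%). All 358 genes without the status OK are listed at 0 in both libraries. The annotated SNORD genes are short, with a median of 82.0 bases, against 134 bases for SNORA and 140.0 bases for SCARNA. None of the 201 genes under 89 bases had a value above 0, and 200 of these are SNORD genes. From 80 to 99 bases 2 of 121 genes were above 0, from 100 to 119 bases 5 of 13, from 120 to 139 bases 53 of 140, from 140 to 199 bases 13 of 24, and at 200 bases or more 19 of 28. The lengths that most annotated SNORD genes have were thus almost without a measured snoRNA, and short length and a lack of expression cannot be told apart for them.

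**Figure D1:**
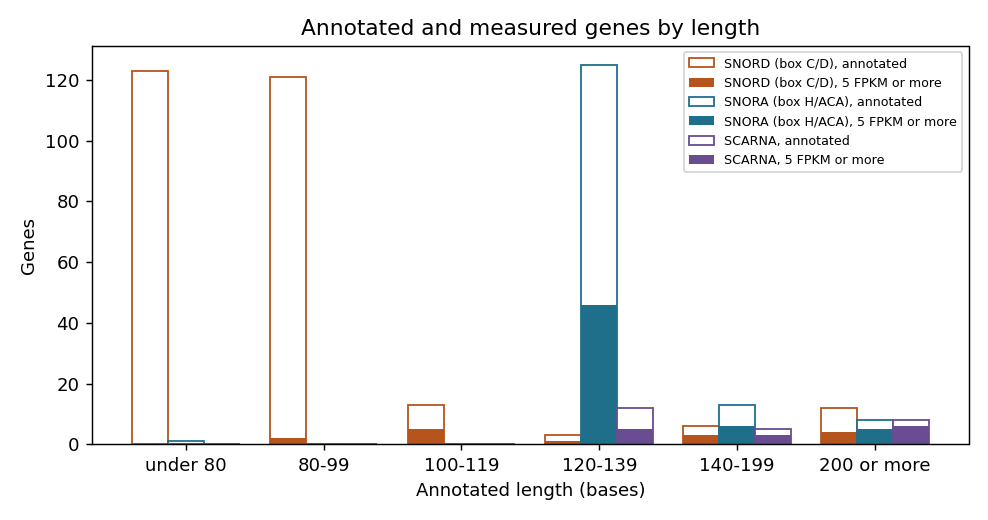
Annotated snoRNA and scaRNA genes (open bars) and those at 5 FPKM or more in at least 1 library (filled bars), by annotated length in bases and by class. Under 80 bases 0 of 123 SNORD genes are filled, and from 80 to 99 bases 2 of 121 are.

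The threshold of 5 FPKM cut through few genes. Just inside it were SNORA74D, at 5.61 FPKM in sgTPST2 and listed at 0 in sgGFP, SNORD3B-1, at 6.31 FPKM in sgTPST2 and 6.13 FPKM in sgGFP, and SCARNA3, at 5.02 FPKM in sgTPST2 and 6.76 FPKM in sgGFP. Outside it were 6 genes with a value above 0. SNORA24 had 4.88 FPKM in sgTPST2 and is listed at 0 in sgGFP, and SNORD91B had 4.01 FPKM in sgTPST2 and 2.15 FPKM in sgGFP. SNORD91A had 3.38 FPKM in sgTPST2 and is listed at 0 in sgGFP, and SNORD3B-2 had 0.652 FPKM in sgTPST2 and 3.54 FPKM in sgGFP. SNORA59B and SNORA74C-2 stayed under 1 FPKM in both libraries.

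A short transcript turns few fragments into many FPKM. What 1 fragment is worth was read from the low values of other short genes with 1 transcript, which lie at whole multiples of a value that depends on length. At 92 bases 1 fragment was worth 423 FPKM in sgTPST2 and 379.7 FPKM in sgGFP. At 104 bases it was worth 108 FPKM in sgTPST2 and 127 FPKM in sgGFP, and at 135 bases, the median length of the 86 genes, 8.04 FPKM in sgTPST2 and 11.0 FPKM in sgGFP. At 204 bases it was worth 0.627 FPKM in sgTPST2 and 0.767 FPKM in sgGFP. At 135 bases a single fragment is therefore enough to pass the threshold of 5 FPKM in either library. The value of 1 fragment in sgTPST2 over that in sgGFP was 0.731 at 135 bases and 0.871 at 600 bases, so equal FPKM does not mean the same ratio of fragments at every length.

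**Figure D2:**
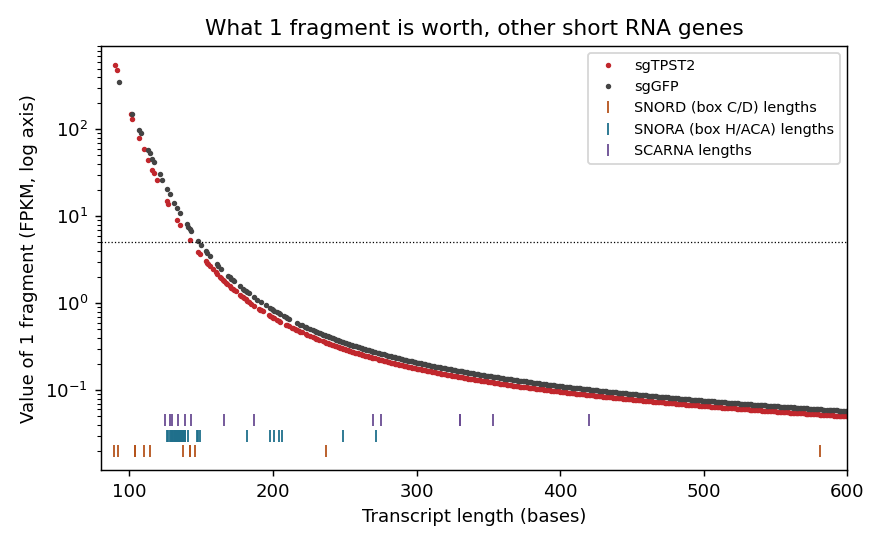
Value of 1 fragment in FPKM (log axis) against transcript length, read from short genes that are not snoRNAs or scaRNAs, for sgTPST2 (red) and sgGFP (grey); the dotted line is 5 FPKM and the ticks are the lengths of the 86 genes by class. At 142 bases, longer than most SNORA genes, 1 fragment is worth 5.30 FPKM in sgTPST2 and 7.16 FPKM in sgGFP.

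Applied to the snoRNAs and scaRNAs, which had no part in the curve, 29 of 34 values of up to 10 fragments in sgTPST2 (85.3%) and 33 of 37 in sgGFP (89.2%) came out within 0.1 of a whole number. The fit was closest for genes inside introns, with 82 of 85 values of up to 100 fragments within 0.1 (96.5%), and poorest for genes that overlap an annotated exon of their host, with 10 of 26 (38.5%). Fragments could be given for 82 of the 86 genes. SNORA71B, SNORD3A, SNORD3B-1 and SNORD3C have several annotated transcripts and were left uncounted. The intervals given below are exact 95% Poisson intervals of the rounded fragments, on the FPKM scale, and cover counting error only.

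By FPKM the set was dominated by 3 box H/ACA snoRNAs. SNORA63 (E3), SNORA73A and SNORA73B (both U17, needed to cut the precursor of 18S ribosomal RNA) held 61.8% of the summed FPKM of the 86 genes in sgTPST2 and 49.7% in sgGFP. FPKM depends on length here. In sgTPST2, SNORA73A and SNORA73B had 21841 and 8943 fragments, but SNORA63, at 132 bases, had 1526. That is fewer than SCARNA7 (7240) and SCARNA2 (6059) had in the same library. The 86 genes together summed to 54539 FPKM in sgTPST2 and 51681 FPKM in sgGFP, which is 5.45% and 5.12% of the summed values of the table. In all, 10 of the genes reached 1000 FPKM in at least 1 library: besides those 3 they were SNORD3A, SNORD13, SNORA17B, SNORA48, SNORA71A, SCARNA7 and SCARNA12.

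**Figure D3:**
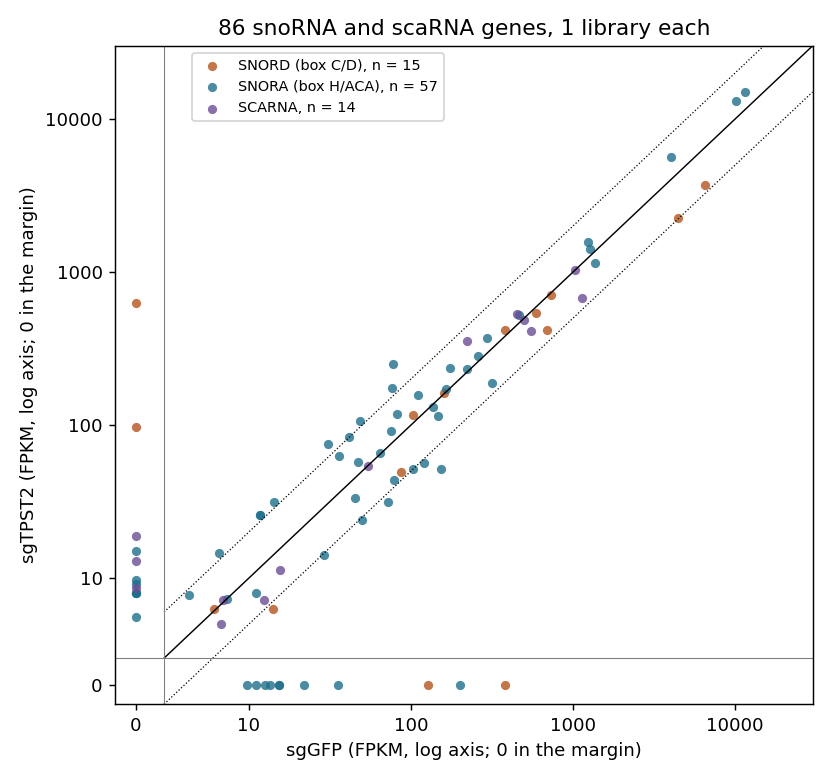
FPKM of each of the 86 genes in sgTPST2 (vertical, log axis) against sgGFP (horizontal, log axis), 1 point per gene, coloured by class; genes listed at 0 in a library are drawn in its margin, the solid line marks equal values and the dotted lines 2-fold. The 10 genes that reach 1000 FPKM lie within the dotted lines, and 23 genes lie in the margins.

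Over the 86 genes the median log2 difference was 0.04, against 0.00 over the 9496 genes of the table with status OK and at least 5 FPKM. Over 183 other short genes with 1 transcript (90 to 416 bases), chosen by the same status and level, it was 0.13. Of the 145 of these above 0 in both libraries, 90 were higher and 55 lower in sgTPST2. By the log2 difference, 20 genes were at least 2-fold higher in sgTPST2 (23.3%, background 1.34%) and 16 at least 2-fold lower (18.6%, background 2.49%). Together these are 41.9% of the genes, against 3.82% over the table. These counts take in the 11 genes listed at 0 in sgTPST2 and the 12 listed at 0 in sgGFP, for which no fold is given. Of the 63 genes above 0 in both libraries, 8 were 2-fold higher and 5 were 2-fold lower, with a median of 0.04, and 36 lay above 0 and 27 below. Among the 183 other short genes, 29.5% were 2-fold apart either way. The snoRNA and scaRNA genes thus scattered more than the table as a whole, as the other short genes did. The 2 sets are not matched for length, with medians of 135.0 bases for the 86 genes and 210.0 bases for the other short genes. At 210 bases 1 fragment was worth 0.555 FPKM in sgTPST2 and 0.676 FPKM in sgGFP, so the same threshold takes more fragments.

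The genes were then grouped by the number of fragments. Of the 31 counted genes with at most 3 fragments in both libraries, 15 were 2-fold higher and 11 were 2-fold lower in sgTPST2, but 22 of the 31 are listed at 0 in 1 library, and with a value of 5 FPKM or more in the other the rule places such genes past 2-fold. Of the 9 above 0 in both, 3 were higher and 1 was lower. Of the 19 with 4 to 20 fragments in the library with more, 3 were higher and 4 lower, and of the 18 with 21 to 100, 2 were higher and 0 lower. Of the 14 with over 100 fragments, 0 were 2-fold apart. These 14 differed by -0.76 to 0.48 on the log2 scale. Among the 24 genes with 20 or more fragments in each library, 1 was 1.5-fold higher (background 3.43%) and 5 were 1.5-fold lower (background 5.47%), and the median was 0.06.

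**Figure D4:**
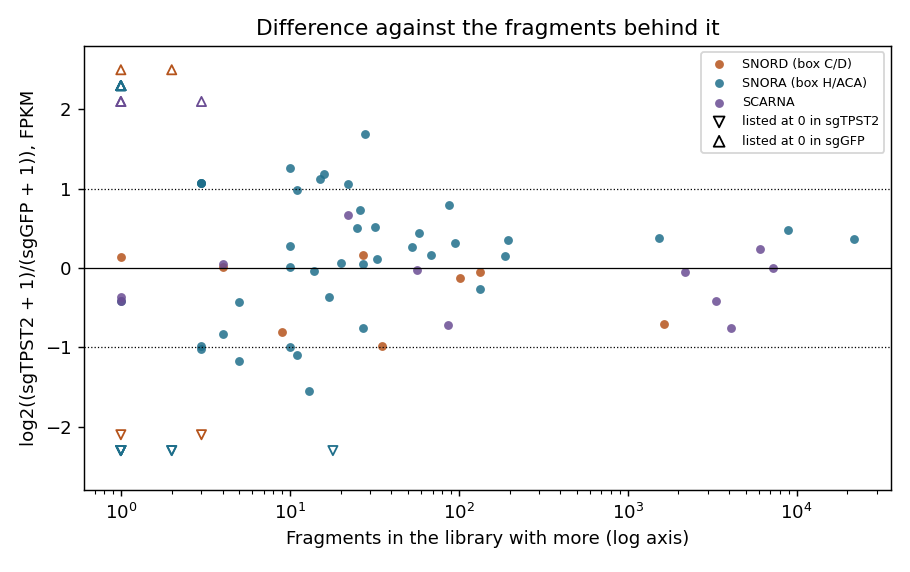
Log2 difference, sgTPST2 over sgGFP, against the number of fragments in the library with more (log axis), for 82 genes; filled points are above 0 in both libraries, and triangles at the bottom and top are genes listed at 0 in sgTPST2 (pointing down) or in sgGFP (pointing up), whose height carries no value. Dotted lines mark 2-fold; above 100 fragments the points lie between -0.76 and 0.48.

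In the authors' deposited table, 0 of the 86 genes have q under 0.05 (background 0.695%), and the smallest q among them is 0.985, for SNORD3A. At the authors' unadjusted p under 0.05 there are 2 genes in the authors' deposited table, SNORD3A with p = 0.0210 and SNORA70 with p = 0.0386. The counting intervals of the 2 libraries were apart for 11 of the 82 counted genes, 6 higher and 5 lower in sgTPST2. Among the 183 other short genes the intervals were apart for 23.5%, 16.9% higher and 6.56% lower. These other genes have a longer median length, so more fragments stand behind the same FPKM. The 11 genes are 6 SNORA, 1 SNORD and 4 SCARNA genes, and 6 of them overlap an exon of their host.

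The snoRNAs that act in cutting the ribosomal RNA precursor lay on both sides of equality. SNORA73A and SNORA73B, 2 copies of U17 with 93.2% identity in the host SNHG3, were higher in sgTPST2. SNORA73A had 13136 FPKM in sgTPST2 and 10189 FPKM in sgGFP (21841 and 13869 fragments), a log2 difference of 0.37, and its intervals, 12962 to 13311 FPKM in sgTPST2 and 10020.5 to 10360.4 FPKM in sgGFP, were apart. SNORA73B had 5607 FPKM in sgTPST2 and 4018 FPKM in sgGFP (8943 and 5238 fragments), a log2 difference of 0.48, with intervals apart. SNORA73A overlaps an annotated exon of SNHG3 and SNORA73B lies in an intron. SNHG3 itself had 238 FPKM in sgTPST2 and 209 FPKM in sgGFP (log2 0.19).

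U3 and U13 were lower in sgTPST2. SNORD3A, the main U3 gene, had 3717 FPKM in sgTPST2 and 6494 FPKM in sgGFP, a log2 difference of -0.80. Of the other U3 genes, SNORD3C had 6.32 FPKM in sgTPST2 and 14.0 FPKM in sgGFP (log2 -1.04), SNORD3B-1 had 6.31 FPKM in sgTPST2 and 6.13 FPKM in sgGFP, and SNORD3D is listed at 0 in both. The U3 genes are near copies of each other, so reads may have been split among them. SNORD13 (U13), which pairs with the 3′ region of 18S ribosomal RNA, had 2254 FPKM in sgTPST2 and 4450.0 FPKM in sgGFP (log2 -0.98), but with 21 and 35 fragments its intervals, 1406 to 3473 FPKM in sgTPST2 and 3106 to 6202 FPKM in sgGFP, overlap. SNORD118 (U8, needed for the RNAs of the large ribosomal subunit), SNORD14A to SNORD14E (U14) and SNORD22 (U22) are listed at 0 in both libraries. SNORD13 and the SNORD3 genes have no annotated host on their strand.

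Of the other SNORD genes with over 100 fragments in a library, SNORD97 and SNORD10 were close between libraries and SNORD17 was lower in sgTPST2. SNORD17, a guide for 28S ribosomal RNA whose boxes are printed above, had 419.9 FPKM in sgTPST2 and 689.8 FPKM in sgGFP (1192 and 1633 fragments), a log2 difference of -0.71, with intervals of 396 to 444 FPKM in sgTPST2 and 657 to 724 FPKM in sgGFP. Its host SNX5 had 170.1 FPKM in sgTPST2 and 161 FPKM in sgGFP (log2 0.08). SNORD97, which guides methylation of a methionine transfer RNA, had 712 FPKM in sgTPST2 and 736 FPKM in sgGFP (134 and 103 fragments). SNORD10, in EIF4A1, had 543 FPKM in sgTPST2 and 594 FPKM in sgGFP (102 and 83 fragments). These 2 genes had overlapping intervals, and both overlap an annotated exon of their host, so reads may be shared. SNORD17 lies in an intron.

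SNORD15B, in RPS3, had 116 FPKM in sgTPST2 and 103 FPKM in sgGFP (27 and 18 fragments). SNORD94, a guide for U6, had 49.7 FPKM in sgTPST2 and 87.2 FPKM in sgGFP, which is 7 and 9 fragments. SNORD89 had 163 FPKM in sgTPST2 and 161 FPKM in sgGFP, which is 4 and 3 fragments. SNORD116-16, of the imprinted cluster in SNHG14 that is lost in Prader-Willi syndrome, had 421 FPKM in sgTPST2 and 381 FPKM in sgGFP, and each value rests on 1 fragment. A high FPKM is thus no sign of depth at these lengths. The median log2 difference of the 15 SNORD genes was -0.13 (-0.80 without the 4 that overlap an exon of their host), with 2 genes 2-fold higher and 3 lower, 2 listed at 0 in each library included.

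The SNORA class had a median of 0.17 over 57 genes, beside 0.13 over the 183 other short genes. In sgTPST2, 15 genes were 2-fold higher (26.3%, background 1.34%) and 13 lower (22.8%, background 2.49%). These include 9 listed at 0 in sgTPST2 and 7 listed at 0 in sgGFP. Among the 183 other short genes, which are longer by median, 14.8% were 2-fold higher and 14.8% lower. SNORA63, the most abundant by FPKM, had 14946 FPKM in sgTPST2 and 11457 FPKM in sgGFP (1526 and 852 fragments), a log2 difference of 0.38, with intervals of 14204 to 15713 FPKM in sgTPST2 and 10702 to 12254 FPKM in sgGFP. Its host EIF4A2, a translation initiation factor, had 656 FPKM in sgTPST2 and 529.5 FPKM in sgGFP (log2 0.31). SNORA63 overlaps an annotated exon of EIF4A2, so reads may be shared. SNORA48, in EIF4A1, had 1573 FPKM in sgTPST2 and 1236 FPKM in sgGFP (196 and 112 fragments, log2 0.35), with overlapping intervals. SNORA48 overlaps an annotated exon of its host as well.

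SNORA74A (U19), in SNHG4, had 62.9 FPKM in sgTPST2 and 36.1 FPKM in sgGFP (88 and 41 fragments), a log2 difference of 0.79 with intervals apart, while SNHG4 had 91.3 FPKM in sgTPST2 and 86.8 FPKM in sgGFP. SNORA68, a guide for 28S ribosomal RNA, had 252 FPKM in sgTPST2 and 77.3 FPKM in sgGFP. That is 28 and 6 fragments, a log2 difference of 1.69, with intervals of 170.3 to 370.5 FPKM in sgTPST2 and 27.7 to 164 FPKM in sgGFP. SNORA68 overlaps an annotated exon of its host, so reads may be shared. SNORA68 had the largest difference of the SNORA genes above 0 in both libraries.

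The next largest rested on few fragments. SNORA80B had 75.5 FPKM in sgTPST2 and 31.0 FPKM in sgGFP (10 and 3 fragments), the 130-base SNORA17B gene 174 FPKM in sgTPST2 and 75.9 FPKM in sgGFP (16 and 5 fragments), and SNORA2C 107 FPKM in sgTPST2 and 48.4 FPKM in sgGFP (15 and 5 fragments). Their log2 differences were 1.26, 1.19 and 1.12, and their intervals overlap. SNORA38B and SNORA5A had a log2 difference of 1.07 each, from 3 fragments in sgTPST2 and 1 in sgGFP. SNORA74B had 14.7 FPKM in sgTPST2 and 6.56 FPKM in sgGFP (22 and 8 fragments, log2 1.06), and its host ATP6V0E1 had 317 FPKM in sgTPST2 and 221 FPKM in sgGFP (log2 0.52). The 136-base SNORA17B gene had 1418 FPKM in sgTPST2 and 1281 FPKM in sgGFP (188 and 124 fragments). The 130-base entry (chr9:136726105-136726234) lies wholly inside the 136-base entry (chr9:136726104-136726239) on the same strand, so these are 2 annotations of the same stretch of SNHG7, counted as 2 of the 86 genes, and how reads were divided between them is uncertain.

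At the lower end the intervals also overlap. SNORA22C had 51.5 FPKM in sgTPST2 and 153 FPKM in sgGFP (6 and 13 fragments, log2 -1.55), SNORA3B had 31.4 FPKM in sgTPST2 and 72.1 FPKM in sgGFP (3 and 5 fragments, log2 -1.17), and SNORA80D had 56.3 FPKM in sgTPST2 and 121 FPKM in sgGFP (7 and 11 fragments, log2 -1.09). SNORA37, SNORA21B and SNORA5C had log2 differences of -1.02, -0.99 and -0.98, from 2, 7 and 2 fragments in sgTPST2 and 3, 10 and 3 in sgGFP. SNORA5A and SNORA5C lie in the same host, TBRG4, and stood on opposite sides of 0, each with at most 3 fragments a library.

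SNORA22 and SNORA22C are shown because their values may share reads. SNORA22 (chr7:65755526-65755659, plus strand) and SNORA22C (chr7:65065999-65066132, plus strand) lie in introns of the chaperonin pseudogenes CCT6P1 and CCT6P3 and have 98.5% identity. Counted from 1 at the 5′ end, with the base of SNORA22 first, they differ at A87G and T104C, and the capitals mark the H box and the ACA box.
SNORA22: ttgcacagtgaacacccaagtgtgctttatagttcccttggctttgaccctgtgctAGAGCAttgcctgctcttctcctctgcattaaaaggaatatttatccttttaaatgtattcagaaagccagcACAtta
SNORA22C: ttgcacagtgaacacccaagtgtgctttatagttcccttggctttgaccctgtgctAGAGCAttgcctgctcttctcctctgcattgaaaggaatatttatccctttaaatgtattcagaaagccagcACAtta
SNORA22 had 189 FPKM in sgTPST2 and 318 FPKM in sgGFP (22 and 27 fragments, log2 -0.75). A read that covers neither position cannot be assigned to either gene, so the division between them is uncertain, and both were lower in sgTPST2.

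The 14 scaRNAs had a median log2 difference of -0.01. Of these, 3 were 2-fold higher in sgTPST2 (21.4%, background 1.34%), all listed at 0 in sgGFP, and 0 were lower (background 2.49%). SCARNA7 (U90, a guide for U1) had 1026 FPKM in sgTPST2 and 1024 FPKM in sgGFP (7240 and 6184 fragments). SCARNA13 (U93, a guide for U2 and U5) had 484 FPKM in sgTPST2 and 500.4 FPKM in sgGFP (2173 and 1900 fragments). SCARNA16, a guide for U1, had 53.7 FPKM in sgTPST2 and 54.7 FPKM in sgGFP (57 and 47 fragments). These 3 lay within 0.05 log2 of equality with overlapping intervals.

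SCARNA2, a box C/D guide for U2, had 534 FPKM in sgTPST2 and 451 FPKM in sgGFP (6059 and 4430 fragments, log2 0.24), and its intervals, 520.4 to 547 FPKM in sgTPST2 and 438 to 465 FPKM in sgGFP, were apart. SCARNA9, which guides U2 as well, had 7.17 FPKM in sgTPST2 and 12.4 FPKM in sgGFP (58 and 87 fragments, log2 -0.72), with intervals apart, and its host CEP295 had 15.0 FPKM in sgTPST2 and 14.3 FPKM in sgGFP. SCARNA22, whose sequence is printed above, had 356 FPKM in sgTPST2 and 223 FPKM in sgGFP (22 and 10 fragments, log2 0.67), with overlapping intervals. SCARNA2 and SCARNA9 thus differed in direction by these values, although both guide U2. SCARNA2 (chr1:109100193-109100612) overlaps an exon of AL356488.2 (chr1:109100193-109100619), an entry of nearly the same stretch, so reads may be shared. AL356488.2 had 43.5 FPKM in sgTPST2 and 53.3 FPKM in sgGFP (log2 -0.29).

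SCARNA12 (U89) and SCARNA10 (U85), which guide U5, were lower in sgTPST2. SCARNA12 had 672 FPKM in sgTPST2 and 1139 FPKM in sgGFP (2867 and 4101 fragments, log2 -0.76), and SCARNA10 had 411 FPKM in sgTPST2 and 551 FPKM in sgGFP (2897 and 3328 fragments, log2 -0.42). Their intervals were apart. SCARNA12 overlaps an exon of its host, and SCARNA10 lies in an intron. They are the 2 genes of the 86 on the short arm of chromosome 12. Their hosts were lower as well: PHB2, the host of SCARNA12, had 174 FPKM in sgTPST2 and 321 FPKM in sgGFP (log2 -0.88), and NCAPD2, the host of SCARNA10, had 47.8 FPKM in sgTPST2 and 86.4 FPKM in sgGFP (log2 -0.84). Over 102 protein-coding genes of that arm with a mean of at least 5 FPKM the median log2 difference was -0.88. The part of this regional difference in the 2 scaRNAs was not tested.

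The other scaRNAs rest on at most 4 fragments. SCARNA1 had 7.19 FPKM in sgTPST2 and 6.91 FPKM in sgGFP (4 and 3 fragments). SCARNA3 and SCARNA23 had 1 fragment in each library, and their FPKM of 5.02 and 11.3 in sgTPST2 against 6.76 and 15.5 in sgGFP give log2 differences of -0.37 and -0.42 from equal fragments. SCARNA21, SCARNA4 and SCARNA18 are listed at 0 in sgGFP and had 18.9, 12.9 and 8.58 FPKM in sgTPST2, from 3, 1 and 1 fragments.

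**Figure D5:**
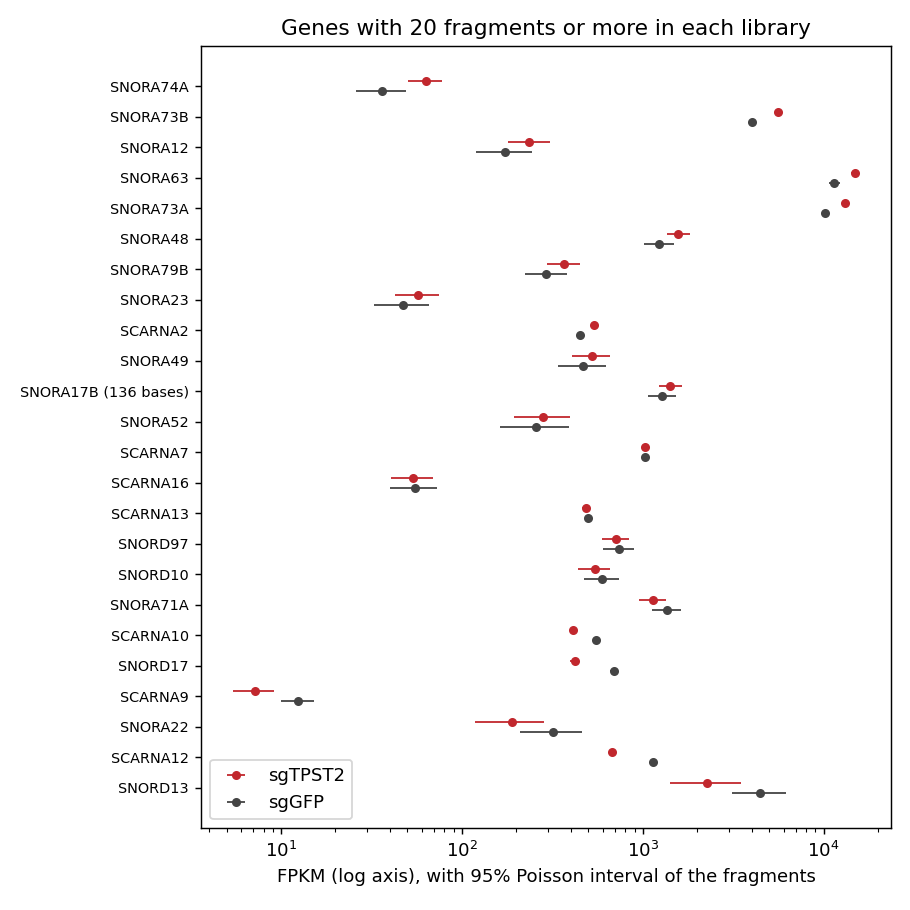
FPKM (log axis) of the 24 genes with 20 or more fragments in each library, sgTPST2 in red above sgGFP in grey, ordered by log2 difference; horizontal bars are exact 95% Poisson intervals of the fragments. The intervals are apart for SNORA74A, SNORA73B, SNORA63, SNORA73A and SCARNA2 (higher in sgTPST2) and for SCARNA10, SNORD17, SCARNA9 and SCARNA12 (lower).

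Of the 86 genes, 23 are listed at 0 in 1 library, 11 in sgTPST2 (background 0.369%) and 12 in sgGFP (background 0.305%). Among the 183 other short genes, whose median length is greater, 20.8% are. In the library with a value, 17 of the 23 genes had 1 fragment, and apart from SNORA70 none had over 3. A listed 0 here is thus mostly a difference of 1 to 3 fragments, and 3 fragments at 135 bases, the limit that a count of 0 allows, are 24.1 FPKM in sgTPST2 and 33.0 FPKM in sgGFP. By class, 2 SNORD and 9 SNORA genes are at 0 in sgTPST2, and 2 SNORD, 7 SNORA and 3 SCARNA genes are at 0 in sgGFP.

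Among those listed at 0 in sgGFP, SNORD12C, in ZFAS1, had 625 FPKM in sgTPST2 from 1 fragment. The limit of 3 fragments for its 0 in sgGFP is 1513 FPKM. SNORA28, SNORA20, SNORA68B, SNORA46 and SNORA14B had 15.0, 9.79, 9.16, 8.04 and 8.04 FPKM in sgTPST2, each from 1 fragment. Among those listed at 0 in sgTPST2, SNORD46 had 382 FPKM in sgGFP from 3 fragments. Its Poisson intervals overlap (up to 399 FPKM in sgTPST2, from 78.8 FPKM in sgGFP), and the limit of 3 fragments in sgTPST2 is 325 FPKM. SNORA11F, SNORA2A, SNORA33 and SNORA65 had 35.6, 22.0, 15.4 and 15.4 FPKM in sgGFP, from 2, 2, 1 and 1 fragments.

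SNORA70 (U70), a guide for 18S ribosomal RNA in the ribosomal protein gene RPL10, stands apart from the other zeros. It is listed at 0 in sgTPST2, where a count of 0 allows up to 24.1 FPKM, and had 200.1 FPKM in sgGFP from 18 fragments, with an interval of 117 to 313 FPKM. RPL10 had 2385 FPKM in sgTPST2 and 2079 FPKM in sgGFP (log2 0.20), and SNORA70 overlaps an annotated exon of it. The related SNORA70I, in an intron of AC016708.1, had 8.04 FPKM in sgTPST2 from 1 fragment and is listed at 0 in sgGFP. The sequences are shown because the relatives are at 0 in opposite libraries. SNORA70 lies at chrX:154400281-154400415, plus strand, and SNORA70I at chr2:214846947-214847081, plus strand. They have 94.1% identity and differ at C2T, G18A, C35T, A36G, A42G, G53A, G88A and A116G, with the base of SNORA70 first, and the capitals mark the H box and the ACA box.
SNORA70: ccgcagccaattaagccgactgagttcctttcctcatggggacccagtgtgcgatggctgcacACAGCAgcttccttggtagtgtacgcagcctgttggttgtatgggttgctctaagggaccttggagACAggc
SNORA70I: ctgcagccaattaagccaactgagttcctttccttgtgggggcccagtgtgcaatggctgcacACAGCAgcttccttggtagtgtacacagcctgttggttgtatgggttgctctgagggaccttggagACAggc
The share of SNORA70 reads that the authors' counting gave to RPL10 was not tested, and a listed 0 can be a failed estimate.

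SNORD8 and SNORD9, relatives that guide methylation of U6 and lie in the same host, CHD8, are at 0 in opposite libraries. SNORD8 had 97.6 FPKM in sgTPST2 from 2 fragments (1.65 before rounding) and is listed at 0 in sgGFP. SNORD8 overlaps an annotated exon of CHD8, so reads may be shared. SNORD9 is listed at 0 in sgTPST2 and had 128 FPKM in sgGFP from 1 fragment. They have 75.5% identity. CHD8, a chromatin remodeller, had 28.8 FPKM in both libraries, so the opposite zeros of these snoRNAs stand beside a host at the same level. Another such pair is SNORA14A and SNORA14B, with 91.1% identity, in POR and TOMM20. SNORA14A is listed at 0 in sgTPST2 and had 11.0 FPKM in sgGFP, and SNORA14B had 8.04 FPKM in sgTPST2 and is listed at 0 in sgGFP, from 1 fragment each.

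Of the 86 genes, 81 lie in an annotated gene on the same strand, 59 inside an intron and 22 overlapping an exon, and 5 have no host. The hosts are 68 different genes. Ribosomal protein genes named RPL or RPS and a number, or a pseudogene of one (RPL32P3), hold 11 of the snoRNAs. The ribosomal protein gene RPLP2 holds SNORA52 besides. Genes named EIF (EIF4A1, EIF4A2, EIF4G2 and EIF5) hold 5, and non-coding SNHG genes hold 14. Hosts with 2 or more of the 86 genes number 10 and hold 23 of them.

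SNHG17 holds 4, the most of any host, and they are the SNORA71 guides for 18S ribosomal RNA. SNORA71A had 1141 FPKM in sgTPST2 and 1364 FPKM in sgGFP (133 and 116 fragments), and SNORA71C had 232 FPKM in sgTPST2 and 223 FPKM in sgGFP (27 and 19 fragments). SNORA71D had 172 FPKM in sgTPST2 and 165 FPKM in sgGFP (20 and 14 fragments), and SNORA71B had 7.35 FPKM in sgTPST2 and 7.34 FPKM in sgGFP. SNHG17 had 20.3 FPKM in sgTPST2 and 20.8 FPKM in sgGFP. SNORA71A stood above SNORA71C and SNORA71D in both libraries, and for these 3 the intervals of the libraries overlap.

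KANSL2 holds SNORA2A, SNORA2B and SNORA2C. SNORA2A and SNORA2B are listed at 0 in sgTPST2 and had 22.0 and 9.69 FPKM in sgGFP, while SNORA2C had 107 FPKM in sgTPST2 and 48.4 FPKM in sgGFP. KANSL2 had 30.8 FPKM in sgTPST2 and 31.8 FPKM in sgGFP. In EIF4A1, the log2 difference by FPKM was 0.35 for SNORA48 and -0.13 for SNORD10, each with overlapping intervals. By fragments divided by the depth of the library it was 0.62 and 0.12, so the direction of SNORD10 depends on the scale. EIF4A1 had 926 FPKM in sgTPST2 and 914 FPKM in sgGFP. Both snoRNAs overlap an annotated exon of it, so reads may be shared. Genes of 1 host share a transcript and are not replicates.

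The hosts were closer between the libraries than the RNAs in them, but many of these RNAs rest on few fragments. The part of counting error in this was not tested. Of 59 genes above 0 in both libraries with a host, 24 were at least 1.5-fold apart (background 8.90%), the hosts of 2 were (NCAPD2 and PHB2), and in 1 case, SCARNA12 in PHB2, the RNA and its host both were, in the same direction. SCARNA12 overlaps an annotated exon of PHB2, so these values may share reads. Of the 24 genes with 20 or more fragments in each library, with or without a host, 6 were at least 1.5-fold apart. Of the 22 genes with a host that are listed at 0 in 1 library, 0 have a host 1.5-fold apart. Spearman's rho between the differences of RNA and host was 0.07 over the 59 genes and 0.54 over the 23 with 20 or more fragments in each library. Among these 23 it was 0.51 over the 13 in introns and 0.57 over the 10 that overlap an exon of their host, where reads may be shared. These points share 2 libraries and some share a host, so the rho is a description of this table.

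The genes of the proteins that make up and assemble these particles were close in the 2 libraries, as most genes of the table were. The background for 1.5-fold either way is 8.90%. Of the box C/D core proteins, fibrillarin (FBL) had 102 FPKM in sgTPST2 and 113 FPKM in sgGFP, NOP56 449 FPKM in sgTPST2 and 466 FPKM in sgGFP, and SNU13 142 FPKM in sgTPST2 and 138 FPKM in sgGFP. NOP58 had 91.6 FPKM in sgTPST2 and 138 FPKM in sgGFP (log2 -0.59), and was the 1 gene of the 4 past 1.5-fold. The median of the 4 was -0.10. In the box H/ACA core, dyskerin (DKC1) had 109.9 FPKM in sgTPST2 and 122 FPKM in sgGFP, NHP2 187 FPKM in sgTPST2 and 168 FPKM in sgGFP, and GAR1 4.63 FPKM in sgTPST2 and 5.33 FPKM in sgGFP. The median of these and NOP10 was -0.03, with 0 of 4 past 1.5-fold.

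The 9 assembly factors had a median of -0.04, from -0.45 (RPAP3) to 0.17 (SHQ1). The 4 Cajal body genes (COIL, WRAP53, SMN1 and TOE1) had a median of -0.06. In either list 0 were past 1.5-fold (background 8.90%). SMN1 has a near-identical copy, so its value is uncertain. Of the related non-coding RNAs, telomerase RNA (TERC), which carries an H/ACA domain bound by dyskerin, had 86.4 FPKM in sgTPST2 and 66.9 FPKM in sgGFP (log2 0.36). RMRP, the RNA of RNase MRP, had 72883 FPKM in sgTPST2 and 48068 FPKM in sgGFP (log2 0.60), and RPPH1, the RNA of RNase P, had 51919 FPKM in sgTPST2 and 39626 FPKM in sgGFP (log2 0.39). All 3 were higher in sgTPST2, and RMRP was past 1.5-fold (background 3.43%). The other short genes (90 to 416 bases) lean to that side too (median 0.13), but they are no separate comparison. RMRP and RPPH1, at 264 and 333 bases, lie in that range of lengths and may be among them, and TERC, at 541 bases, lies outside it.

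The direction of small differences depended on whether FPKM or fragments were compared. The step between the 2 scales depends on transcript length, and also on level, because the fragment scale leaves out the added 1. Going to fragments over depth raised 57 of 59 log2 differences, so a sign kept or changed between the scales is no separate evidence. Over the 59 genes with fragments in both libraries, 34 were higher and 25 lower in sgTPST2 by FPKM, with a median of 0.05, and 39 were higher and 20 lower by fragments divided by depth, with a median of 0.27. The sign differed for 7 genes. SNORA63 had a log2 difference of 0.38 by FPKM and 0.66 by fragments over depth. Among the 24 genes with 20 or more fragments in each library, the 13 SNORA genes had a median of 0.32 by FPKM, with 11 higher and 2 lower, and 0.47 by fragments over depth, with 12 higher and 1 lower. The 4 SNORD genes had medians of -0.42 by FPKM, with 0 higher and 4 lower, and -0.26 by fragments over depth, with 2 higher and 2 lower. The 7 SCARNA genes had medians of -0.05 and 0.01 on these scales. Of the 4 SNORD genes, SNORD13 (-0.98 and -0.93) and SNORD17 (-0.71 and -0.64) were lower on both scales, and SNORD10 and SNORD97, near 0, changed sign.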

How the data were processed

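Total RNA of 2 cultures of MIA PaCa-2 cells was sequenced, 1 library each. Per the labels' protocols, RNA was isolated on silica columns and libraries came from a stranded total RNA kit. The submitters' processing notes name STAR, Cuffdiff and hg38. The sources used here do not give versions, annotation release, strand setting or dispersion setting, so overlapping genes may share reads. The authors' deposited table holds 1 value per gene and culture, with a status, a test statistic (score, not used), p-value, q-value and log2 fold, per the file headers. The deposited FPKM values were made by the authors with Cuffdiff, per the submitters' processing notes; no header names their unit, and reading them as FPKM is an assumption. The authors' log2 fold matches the log2 difference used here to within 2.1e-15.

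All 58698 gene identifiers matched GENCODE release 29, which gave coordinates, lengths, hosts and transcript sequences. The value of 1 fragment was followed along length from 80 to 600 bases over genes with 1 transcript that are not snoRNAs or scaRNAs, using values of at most 12 fragments, and interpolated; the method was tested on simulated data. For SNORD12C (89 bases) it lies just beyond the shortest length read (90 bases in sgTPST2 and 93 in sgGFP). Hosts are annotated genes on the same strand. A count of 0 was given a limit of 3 fragments. Work was done in Python 3.11.15 with numpy 2.4.6, scipy 1.17.1 and pandas 2.3.3.

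The genes and lists were chosen with earlier results of these data known. The text names all SCARNA genes, the 6 largest differences each way and 4 highest means of SNORA and of SNORD, the 5 highest per class and library among those listed at 0 in the other, the snoRNAs that cut the ribosomal precursor, genes of hosts with at least 4 of the 86, the hosts, and the lists of proteins. SNORA2B, SNORA14A, SNORA22, SNORA70I, SNORA74A, SNORA74B and genes near the threshold of 5 FPKM were named after their values were seen. Some hosts and sequences are not reported here.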

Additional observations from a re-analysis of the deposited data

How the results depend on the processing

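Alternatives to the processing moved several counts and medians. With the higher value at 20 FPKM or more, 9 genes were 2-fold higher in sgTPST2 and 9 were lower, and 5 were listed at 0 in sgTPST2 and 2 in sgGFP. Without the genes listed at 0, 8 were higher and 5 lower. With fragments divided by depth, over the 59 genes with fragments in both libraries, 9 were higher and 1 lower, against 8 and 4 of the same 59 by FPKM. With at least 4 fragments in the library with more, 5 were higher and 4 lower. These last settings, and leaving out genes that overlap an exon of their host, were chosen after seeing the data. Other pseudocounts (0.1 and 5), scalings between the libraries (factors of 0.999 to 1.001) and leaving out the short arm of chromosome 12 kept the 2-fold counts within 1.5 times. The median over all the genes was 0.02 to 0.05 under every alternative except fragments divided by depth (0.27). The SNORD median was -0.80 without exon overlaps, against -0.13 with them, and the SCARNA median ranged from -0.05 to 0.03, taking both signs. The TPST2 difference was -2.09 with a pseudocount of 0.1 and -0.96 with 5. Sequences were compared between genes with 1 transcript only, and none of the genes so compared was identical to another annotated snoRNA or scaRNA gene. SNORA71B, SNORD3A, SNORD3B-1 and SNORD3C have several transcripts and were not compared. Leaving out genes at 0 gives no value for the counts of genes at 0. No paired analysis was possible because each group has 1 library, which also means that there is no replicate to leave out. Fragments set the limit: 31 of 82 counted genes have at most 3 in both libraries.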
